A study of Homo sapiens with 4 samples.

Results

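Clathrin-mediated endocytosis was followed through 40 genes that encode its machinery, out of 58051 gene identifiers in the deposited tables. The genes were chosen by symbol for their known role and not for how they responded. They cover the clathrin coat, the AP-2 adaptor, scaffolds that start a pit, cargo and membrane adaptors, proteins that bend and cut the neck, and enzymes that control lipids and phosphorylation. All 40 were found and followed in both cell lines.

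H441 is a lung adenocarcinoma line and HT29 a colorectal adenocarcinoma line, both labelled as wild-type epithelial cancer cells. Each line was grown for 7 days in RPMI-1640, a conventional culture medium, or in HPLM, a medium built to resemble the small molecules of human plasma. Both media carried 10% FBS and 1% P/S, so the groups differed in the base medium alone as far as the labels say. Poly(A) RNA was sequenced. The labels record 1 sample for each of the 4 groups, but the tables give each group 3 numbered columns of differing depth, here called libraries. No label states that these were grown as independent cultures, or even that they are more than repeat runs, so the p-values describe the spread among these columns, which may be technical. By its title the study deals with amino acids and with mRNA delivery by lipid nanoparticles, which are taken up in part by endocytosis.

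In this pathway AP-2 binds the inner face of the plasma membrane, gathers cargo receptors and recruits clathrin, whose heavy and light chains assemble into a cage. Scaffold and BAR-domain proteins curve the membrane, dynamin cuts the neck, and lipid phosphatases and a chaperone then strip the coat. Epithelial cells use the route to take up transferrin, lipoprotein particles and activated growth factor receptors.

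Recovered reads numbered 14.2 to 30.6 M per library. Both lines carried markers of their tissue. The summed level of 5 lung epithelial markers ran from 1066 to 2835 TPM (a level scaled to transcript length and to the library's total) in H441 and from 2.57 to 9.21 TPM in HT29. For 5 colonic markers it ran from 2.10 to 4.20 TPM in H441 and from 892 to 1603 TPM in HT29, with CDX1 under 1 TPM in every HT29 library. Most of the HT29 sum was KRT20, at 849 to 1504 TPM, followed by VIL1 at 31.7 to 90.9 TPM. CDX2 stood at 2.95 to 6.30 TPM and CDH17 at 0.612 to 4.00 TPM. Of 6 fibroblast markers, 4 never reached 1 TPM in either line, and neither did CDH5 and VWF among 4 endothelial markers. The fibroblast sum was 59.8 to 77.4 TPM in H441, with COL1A1 at 33.9 to 44.8 TPM and LUM at 25.6 to 33.5 TPM. In HT29 that sum was 0.665 to 2.31 TPM. The endothelial sum was 19.6 to 21.9 TPM in H441, where KDR alone reached 1 TPM, and 0.144 to 1.32 TPM in HT29. All 6 leukocyte markers reached 1 TPM in some library of each line, with sums of 16.2 to 27.2 TPM in H441 and 15.3 to 53.9 TPM in HT29. The lung sum in H441 was 2755 to 2835 TPM in RPMI-1640 and 1066 to 1152 TPM in HPLM. The surfactant genes SFTPA1 (means of 1452 and 447 TPM) and SFTPA2 (978 and 302 TPM) made up the difference, while NKX2-1 (174 and 162 TPM) and NAPSA (201 and 193 TPM) were close to level and SFTPB was 2.78-fold higher in HPLM. The leukocyte sum in HT29 was 29.8 to 53.9 TPM in RPMI-1640 and 15.3 to 21.4 TPM in HPLM. CD14 held most of that difference, at 6.60, 35.7 and 33.4 TPM in RPMI-1640 and 4.49 to 6.77 TPM in HPLM, so that library 1 was level with HPLM. The part of these differences in the results below was not tested. In such bulk samples fewer cells of a type and less RNA per cell cannot be told apart.

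The sequences upstream of 3 genes are shown, chosen after their values were seen, because their responses differed between the lines. SNX18 and SNX9 encode related PX-BAR proteins that bind dynamin. They rose together in H441 and parted in HT29. PICALM encodes a clathrin assembly protein and was the member with motif matches among those that rose in H441. Sequences are from RefSeq on GRCh38.p14, 250 bases upstream of the start, 5′ to 3′ on the gene's strand. Capitals mark CG dinucleotides in the SNX18 window (chr5:54517509-54517758, plus strand, 35 CG, 72.4% G or C) and in the SNX9 window (chr6:157822996-157823245, plus strand, 47 CG, 83.6% G or C). The SNX9 window lies inside the GENCODE span of the gene (chr6:157700387-157945077), so it belongs to a start other than the one at the edge of that span.
SNX18: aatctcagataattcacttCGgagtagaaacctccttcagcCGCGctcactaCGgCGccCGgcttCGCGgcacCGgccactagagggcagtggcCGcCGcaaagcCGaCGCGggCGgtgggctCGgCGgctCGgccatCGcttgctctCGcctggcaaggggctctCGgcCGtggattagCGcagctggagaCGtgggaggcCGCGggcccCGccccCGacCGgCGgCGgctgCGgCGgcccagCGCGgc
SNX9: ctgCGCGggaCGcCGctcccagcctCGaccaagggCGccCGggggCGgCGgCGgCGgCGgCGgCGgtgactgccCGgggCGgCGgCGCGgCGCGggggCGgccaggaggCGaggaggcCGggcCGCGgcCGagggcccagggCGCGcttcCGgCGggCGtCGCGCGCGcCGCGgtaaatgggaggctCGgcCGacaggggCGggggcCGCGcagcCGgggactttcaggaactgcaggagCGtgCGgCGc
In the window of 1 of the PICALM starts (chr11:86069085-86069334, minus strand, 71.2% G or C) capitals mark 2 E-boxes and 1 core of the amino acid response element, the latter read on the opposite strand. Their first bases lie 232, 48 and 170 bases before the start.
PICALM: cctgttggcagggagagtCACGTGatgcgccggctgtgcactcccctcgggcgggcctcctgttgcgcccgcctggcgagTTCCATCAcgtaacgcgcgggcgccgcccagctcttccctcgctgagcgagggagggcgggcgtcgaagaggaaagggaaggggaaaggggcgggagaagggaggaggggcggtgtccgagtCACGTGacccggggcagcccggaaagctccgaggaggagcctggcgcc

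Of the 40 genes, 38 had a window in the RefSeq table, with 57 windows in all. Their median G or C content was 68.8%, against 58% over 35116 windows, and their median CG count was 23 against 11. Both strands were searched for 4 motifs. The amino acid response element core TGATGNAA was in 2 of the 57 windows (EPS15 and PICALM), and in 3.14% of all windows. The E-box CACGTG was in 3 (NECAP2, PICALM and SH3GL1), and in 6.34% of all. The cyclic AMP response element TGACGTCA was in 3 windows of 2 genes (AP2B1 and CLTB), and in 1.65% of all. The heat shock element GAANNTTC was in 0 windows, and in 5.78% of all. In PICALM the response element core and an E-box do not overlap. A match describes letters in these windows and is no evidence of binding.

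Most coat and AP-2 genes were among the most abundant members in both lines, as was PICALM, but the alpha subunits of AP-2 were not. By mean level in RPMI-1640, PICALM ranked 6 of 40 in H441 and 2 in HT29, and the light chain CLTB 7 and 12. The alpha subunit AP2A1 ranked 24 and 20, and the alpha subunit AP2A2 31 and 17. In H441 in RPMI-1640 the highest mean level was that of AP2M1, the cargo-reading mu subunit of AP-2, at 293 ± 7.24 TPM (SD, n = 3). Next came CLTC, the clathrin heavy chain, at 231 ± 12.8 TPM, AP2B1, the beta subunit, at 220 ± 13.3 TPM, and CLTA, a light chain, at 209 ± 2.05 TPM. The libraries of CLTC and AP2B1 overlapped, as did those of AP2B1 and CLTA, so these neighbours did not differ beyond their spread. In HT29 in RPMI-1640 AP2S1, the sigma subunit, stood at 175 ± 62.7 TPM, PICALM at 157 ± 19.7 TPM and CLTC at 149 ± 60.7 TPM, with overlapping libraries. Library 1, described below, set that spread. In libraries 2 and 3 PICALM held 149 and 143 TPM, AP2S1 129 and 149 TPM, and CLTC 123 and 105 TPM, so that PICALM and CLTC no longer overlapped. In HPLM PICALM (125 TPM) and AP2B1 (124 TPM) had the highest means of HT29, with overlapping libraries, and AP2S1 followed at 122 TPM. The lines were deposited in separate tables, so levels are set side by side and not tested between them.

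The lines used different members of some families. DNM1, the dynamin best known from neurons, stood at 0.323 ± 0.0890 TPM in H441 in RPMI-1640, with 12 reads in the shallowest case, and at 72.2 ± 29.6 TPM in HT29 (85.9 and 92.3 TPM in libraries 2 and 3). DNM2, the dynamin found in most cells, stood at 41.1 ± 1.56 and 54.6 ± 9.54 TPM. DNM2 thus supplied 99.0 to 99.4% of summed dynamin TPM in the H441 RPMI-1640 libraries, and 37.7 to 53.8% in those of HT29. DAB2, a cargo adaptor, was listed at 0 in 5 of 6 H441 libraries and at 0.0345 TPM in the other, while HT29 held 7.43 ± 0.289 TPM. FCHO1, which helps to start pits, went the other way. Its level was 9.72 ± 0.471 TPM in H441 but 1.66 ± 0.826 TPM in HT29.

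**Figure D1:**
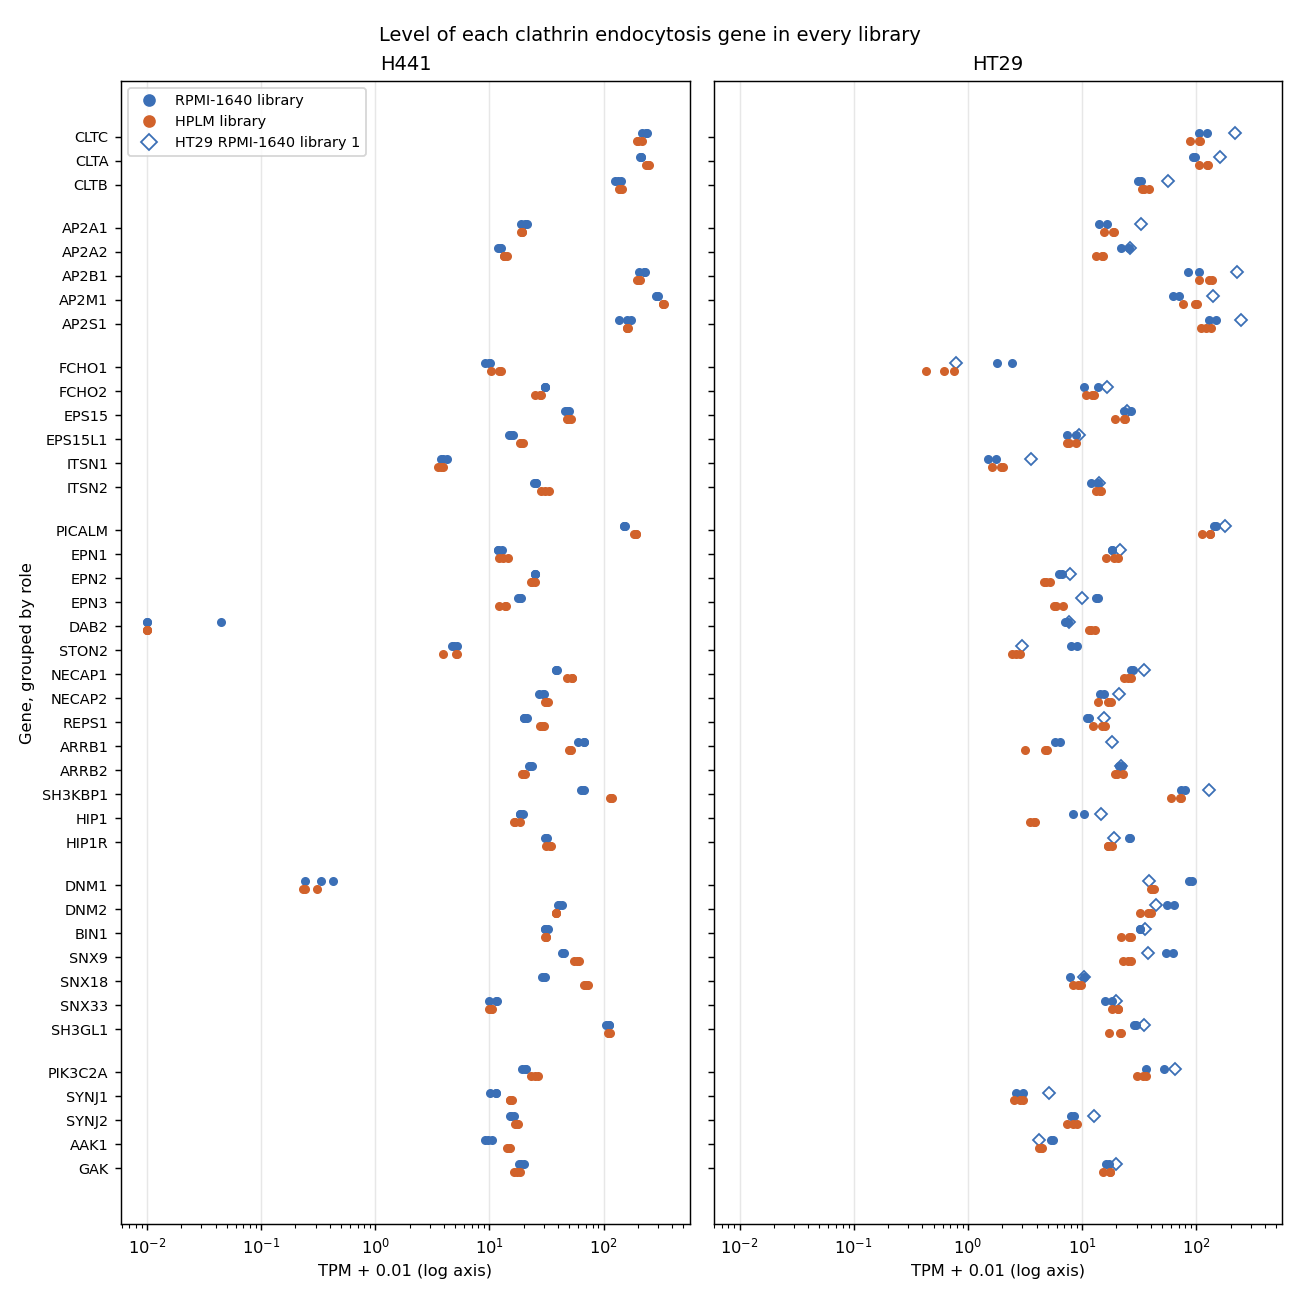
TPM of each of the 40 genes in every library, on a log axis with 0.01 added so that a value of 0 can be drawn, for H441 (left) and HT29 (right), with RPMI-1640 in blue, HPLM in orange and HT29 RPMI-1640 library 1 as an open diamond. DAB2 and DNM1 are near 0 in H441 only, and the open diamond lies apart from the other RPMI-1640 points for many coat and AP-2 genes of HT29.

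In H441, members of every role group were higher in HPLM in the deposited TPM, most of all SNX18 and SH3KBP1. Of 38 members that passed the filter on low values (DAB2 and DNM1 did not), 13 rose, 3 fell and 22 were not called, by limma with a Benjamini-Hochberg adjusted p under 0.05 over all genes tested. The background was high: 33.7% of all 16458 genes tested rose and 11.3% fell. Members had a median log2 change of 0.08, against 0.14 over all genes tested. A raised share near this background is no result about the pathway.

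The split depended on how libraries were scaled. Mitochondrially encoded genes took 24.1 to 28.8% of TPM in the H441 RPMI-1640 libraries and 17.5 to 21.7% in the HPLM libraries. After trimmed mean scaling, which centres the bulk of genes, the median over all genes went from 0.14 to 0.00. Then 8 members rose and 15 fell, against 22.5% of all genes raised and 22.5% lowered. The 8 (AAK1, NECAP1, PICALM, REPS1, SH3KBP1, SNX18, SNX9 and SYNJ1) were among the 13, and EPN3, ARRB1 and ARRB2 fell under both scalings. All other calls in H441 hold under 1 scaling only, and directions below are given with that limit.

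Among the coat genes of H441, the heavy chain moved apart from the light chains. CLTC stood at 236, 240 and 216 TPM in the RPMI-1640 libraries and at 216, 196 and 199 TPM in HPLM. All HPLM libraries lay below all RPMI-1640 libraries, the closest pair being almost level. Its log2 change of -0.18 ± 0.067 (SE) was not called as deposited (limma adjusted p = 0.078), and was -0.34 after trimmed mean scaling (limma adjusted p = 0.0039). In the authors' deposited table CLTC has a log2 fold change of -0.34 and an adjusted p of 4.8e-17. CLTA stood at 210, 211 and 207 TPM in RPMI-1640 and at 244, 234 and 250 TPM in HPLM, without overlap. It was called raised as deposited, by 0.21 ± 0.047 (limma adjusted p = 0.015), but not after scaling (0.05, limma adjusted p = 0.29), nor without RPMI-1640 library 1 (0.22), HPLM library 1 (0.21) or HPLM library 3 (0.19). CLTB, the other light chain, stood at 127, 141 and 134 TPM in RPMI-1640 and at 139, 136 and 145 TPM in HPLM, with overlap. Its change was 0.07 ± 0.059 as deposited and -0.09 after scaling, not called either way.

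A ratio within each library does not move with scaling. CLTC over the sum of CLTA and CLTB was 0.699, 0.682 and 0.634 in the H441 RPMI-1640 libraries and 0.563, 0.529 and 0.504 in HPLM. In HT29 it was 1.01, 0.983 and 0.804 in RPMI-1640 and 0.652, 0.686 and 0.632 in HPLM. Heavy chain TPM per light chain TPM was thus lower in every HPLM library than in every RPMI-1640 library of its line, library 1 of HT29 included. The ratio was chosen after its values were seen, and an exact permutation test of 3 libraries against 3 cannot go below p = 0.1, which it gave in each line. CLTC shares exonic sequence with PTRH2 on the opposite strand, and the library kit keeps no strand, so reads of the overlap cannot be told apart.

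AP-2 subunits changed little in H441. AP2M1 stood at 287, 301 and 291 TPM in RPMI-1640 and at 333, 328 and 338 TPM in HPLM, and its rise of 0.18 ± 0.045 passed the test as deposited (limma adjusted p = 0.021). It was 0.02 and not called after scaling (limma adjusted p = 0.65). It was also not called without RPMI-1640 library 1 (0.17) or 3 (0.18), or without HPLM library 1 (0.18) or 3 (0.17). AP2B1 stood at 227, 228 and 205 TPM in RPMI-1640 and at 208, 195 and 206 TPM in HPLM, which overlap. AP2A1, an alpha subunit, stood at 20.6, 21.4 and 18.9 TPM and at 18.8, 19.3 and 19.2 TPM, which also overlap. Both were lower without a call as deposited (-0.11 and -0.08) and were called lower after scaling (-0.27 and -0.23, limma adjusted p = 0.0043 and 0.011). AP2A2, the other alpha subunit, stood at 12.2, 12.7 and 11.9 TPM in RPMI-1640 and at 13.4, 14.2 and 13.3 TPM in HPLM, without overlap. Its change of 0.14 ± 0.051 was not called (limma adjusted p = 0.068), and scaling brought it to -0.01. AP2S1 stood at 161, 172 and 135 TPM and at 159, 161 and 164 TPM, with overlap and no call (0.06 as deposited, -0.10 after scaling).

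Of the genes for proteins that bend or cut the neck, SNX18 and SNX9 alone were called raised in H441, SNX18 by the most of all members. The median log2 change of this group was 0.01, against 0.14 over all genes tested. SNX18 (chr5:54517759-54546585, GRCh38), whose upstream window is printed above, stood at 29.7, 30.6 and 28.8 TPM in RPMI-1640 and at 73.2, 67.3 and 70.6 TPM in HPLM. The mean was 2.37-fold higher in HPLM, far outside the spread of either group, and the log2 change was 1.22 ± 0.054 (limma adjusted p = 0.00015) or 1.06 after scaling. Its value carries a caution, since 16 annotated pseudogenes are named after it and could share reads. SNX9 (chr6:157700387-157945077) stood at 42.9, 44.1 and 44.9 TPM in RPMI-1640 and at 57.9, 55.0 and 60.9 TPM in HPLM, 1.32-fold higher without overlap. Its log2 change was 0.39 ± 0.056 (limma adjusted p = 0.0035) and 0.23 after scaling (limma adjusted p = 0.015). The related SNX33 stood between 9.89 and 11.7 TPM in all H441 libraries, with overlapping groups and a change of -0.09, and was called lower after scaling alone (-0.23, limma adjusted p = 0.031). DNM2 stood at 40.7, 42.8 and 39.8 TPM in RPMI-1640 and at 38.2, 38.4 and 38.4 TPM in HPLM. Its change was -0.10 ± 0.048 without a call (limma adjusted p = 0.15), and -0.25 after scaling (limma adjusted p = 0.0042). BIN1, an amphiphysin that curves membranes, and SH3GL1, an endophilin, changed by -0.01 and 0.03 as deposited, neither called, and were called lower after scaling (-0.16 and -0.13).

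**Figure D2:**
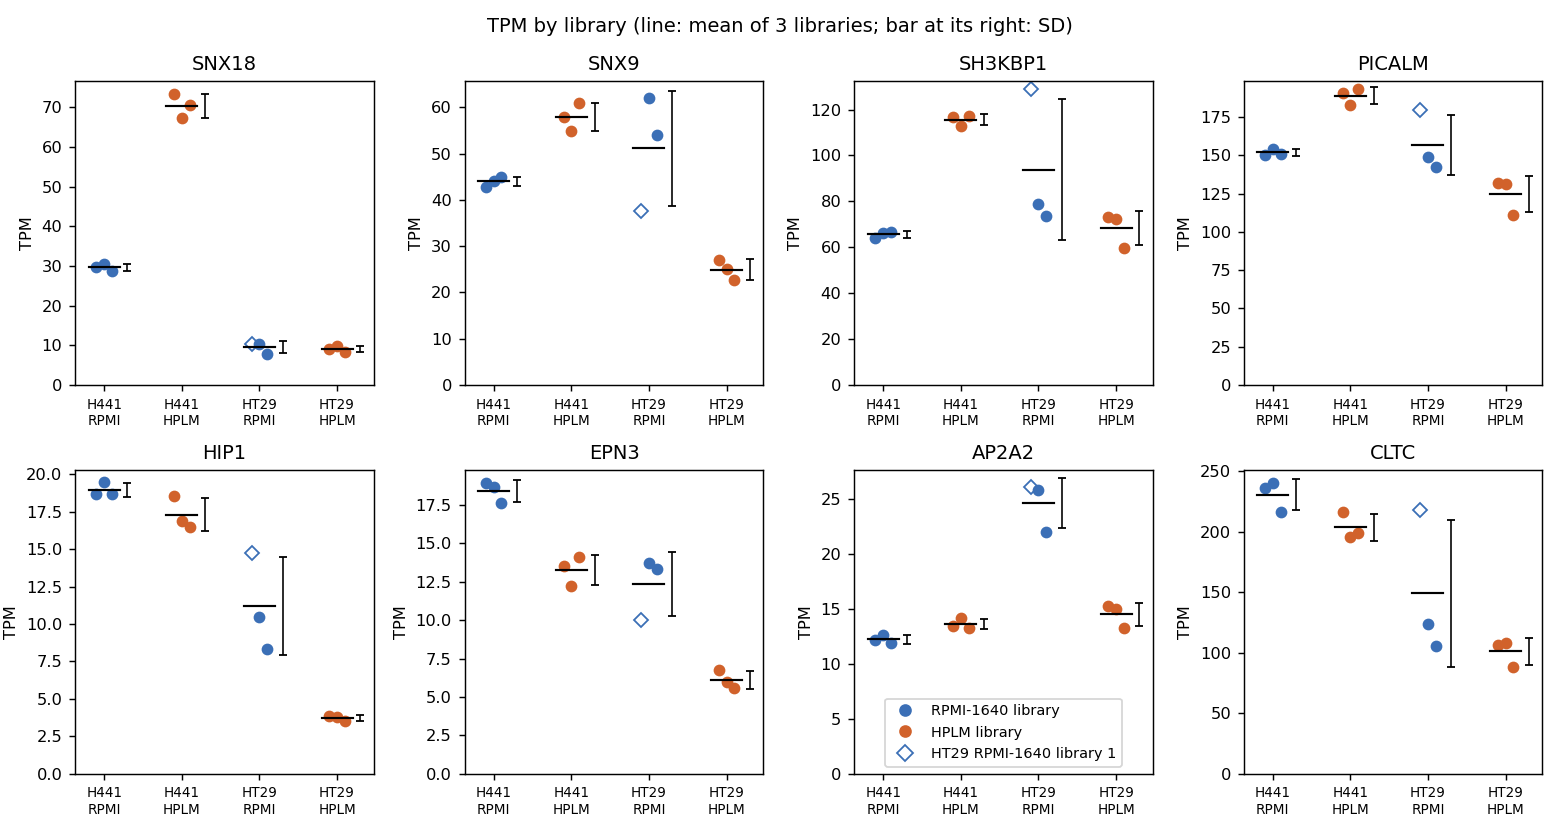
TPM of 8 genes in each of the 12 libraries (y axis, from 0), by line and medium, with a line at the mean of 3 libraries and a bar of 1 SD at its right; the open diamond is HT29 RPMI-1640 library 1. SNX18 lies at 67.3 to 73.2 TPM in the H441 HPLM libraries and at 10.4 TPM or less in every HT29 library, while HIP1, EPN3 and AP2A2 are lower in every HPLM library of HT29 than in every RPMI-1640 library.

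Cargo and membrane adaptors of H441 moved both ways. SH3KBP1 (chrX:19533975-19887601), an adaptor that works with CBL ubiquitin ligases in the downregulation of growth factor receptors, stood at 63.9, 66.1 and 66.8 TPM in RPMI-1640 and at 117, 113 and 117 TPM in HPLM. This 1.76-fold rise, 0.81 ± 0.046 on the log2 scale (limma adjusted p = 0.00025), was 0.65 after scaling. REPS1, an EH-domain protein that binds epsin, stood at 21.3, 19.9 and 20.2 TPM in RPMI-1640 and at 29.8, 27.9 and 28.7 TPM in HPLM (0.47 ± 0.052, limma adjusted p = 0.0014). NECAP1, which binds AP-2 and shapes its recruitment of accessory proteins, stood at 39.0, 38.0 and 37.9 TPM and at 53.1, 48.1 and 53.2 TPM (0.42 ± 0.057, limma adjusted p = 0.0031). PICALM stood at 150, 154 and 151 TPM in RPMI-1640 and at 191, 183 and 194 TPM in HPLM (0.31 ± 0.046, limma adjusted p = 0.0038). None of these 4 genes had overlapping groups, and each kept its call after scaling.

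The 3 members that fell in H441 under both scalings are also adaptors. EPN3, an epsin known mainly from epithelia, stood at 19.0, 18.7 and 17.6 TPM in RPMI-1640 and at 13.5, 12.2 and 14.1 TPM in HPLM. Its change was -0.44 ± 0.067 (limma adjusted p = 0.0041), and -0.60 after scaling. It shares exons with SPATA20 on the same strand, so its reads are not fully its own. ARRB1, a beta-arrestin that brings G-protein-coupled receptors to coated pits, stood at 67.9, 67.2 and 59.7 TPM in RPMI-1640 and at 50.6, 49.9 and 51.9 TPM in HPLM (-0.35 ± 0.065, limma adjusted p = 0.0086). ARRB2, the other beta-arrestin, stood at 22.1, 23.4 and 22.6 TPM and at 19.4, 20.4 and 19.6 TPM (-0.19 ± 0.048, limma adjusted p = 0.025). No groups overlapped for these genes. The ARRB2 call was lost when any library but HPLM library 2 was left out, with changes of -0.21 to -0.17. EPN1, EPN2, STON2, NECAP2, HIP1 and HIP1R were not called as deposited, with changes from -0.12 to 0.12, and EPN2 and HIP1 were called lower after scaling.

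Of 5 lipid and kinase genes in H441, 3 were raised as deposited, and 2 were raised and 1 lowered after scaling, against the 33.7% and 22.5% of all genes raised. AAK1, the kinase that phosphorylates the mu subunit of AP-2, stood at 9.71, 10.5 and 9.13 TPM in RPMI-1640 and at 15.1, 14.3 and 14.8 TPM in HPLM. This was a 1.51-fold rise without overlap (0.55 ± 0.062, limma adjusted p = 0.0016). SYNJ1, a phosphoinositide phosphatase that promotes uncoating, stood at 10.1, 11.5 and 11.5 TPM and at 15.6, 15.2 and 15.2 TPM (0.44 ± 0.063, limma adjusted p = 0.0034). Both kept their call after scaling, at 0.40 and 0.30. PIK3C2A, a lipid kinase that acts as pits mature, stood at 19.2, 20.8 and 20.4 TPM and at 25.0, 23.2 and 26.5 TPM (0.29 ± 0.066, limma adjusted p = 0.016). Its call was lost after scaling (0.14), without RPMI-1640 library 1 (0.26) and without HPLM library 1 (0.29) or 3 (0.25), and it shares exons with RPS13. SYNJ2, the relative of SYNJ1, changed by 0.14 and was not called. GAK, an uncoating kinase related to AAK1, stood between 16.4 and 20.2 TPM with overlapping groups, and was called lower after scaling alone (-0.28).

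Scaffolds that start a pit showed small changes in H441. EPS15L1, which binds AP-2 through repeated motifs, stood at 14.7, 16.1 and 15.5 TPM in RPMI-1640 and at 18.8, 19.6 and 18.5 TPM in HPLM (0.28 ± 0.054, limma adjusted p = 0.0090). ITSN2, a multidomain scaffold, stood at 25.7, 25.7 and 24.5 TPM and at 32.9, 28.5 and 30.8 TPM (0.27 ± 0.066, limma adjusted p = 0.021). Neither was called after scaling (0.13 and 0.11), and ITSN2 was not called when any library but HPLM library 2 was left out (0.22 to 0.28). FCHO1, FCHO2, EPS15 and ITSN1 were not called as deposited, with changes from -0.18 to 0.24, and FCHO2 and ITSN1 were called lower after scaling (-0.33 and -0.20).

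In HT29 RPMI-1640 library 1 stood apart from libraries 2 and 3. It had the fewest recovered reads of all libraries, 14.2 M, and 19.3% of its TPM came from mitochondrially encoded genes, against 30.2 and 28.8% in libraries 2 and 3. It lay more than 1.5-fold above both other RPMI-1640 libraries in 11 of 39 members tested, against 28.2% of all genes tested, and more than 1.5-fold below both in 2, against 21.9%. The 11 were CLTC, CLTA and CLTB, 4 of the 5 AP-2 subunits (AP2A1, AP2B1, AP2M1 and AP2S1), ARRB1, SH3KBP1, SYNJ1 and ITSN1. CLTC, for example, stood at 218 TPM in library 1 and at 123 and 105 TPM in libraries 2 and 3, and AP2B1 at 230, 105 and 84.2 TPM. The 2 below were STON2, at 2.96 TPM against 7.94 and 9.08 TPM, and DNM1, at 38.2 TPM against 85.9 and 92.3 TPM. For both of these, library 1 was near the HPLM libraries, which held 2.42 to 2.85 TPM of STON2 and 40.4 to 42.4 TPM of DNM1. HSPA8, the chaperone that removes clathrin and no member of the 40, stood at 1956 TPM in library 1 and at 209 and 157 TPM in the others. Changes in HT29 are therefore given with and without this library.

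**Figure D3:**
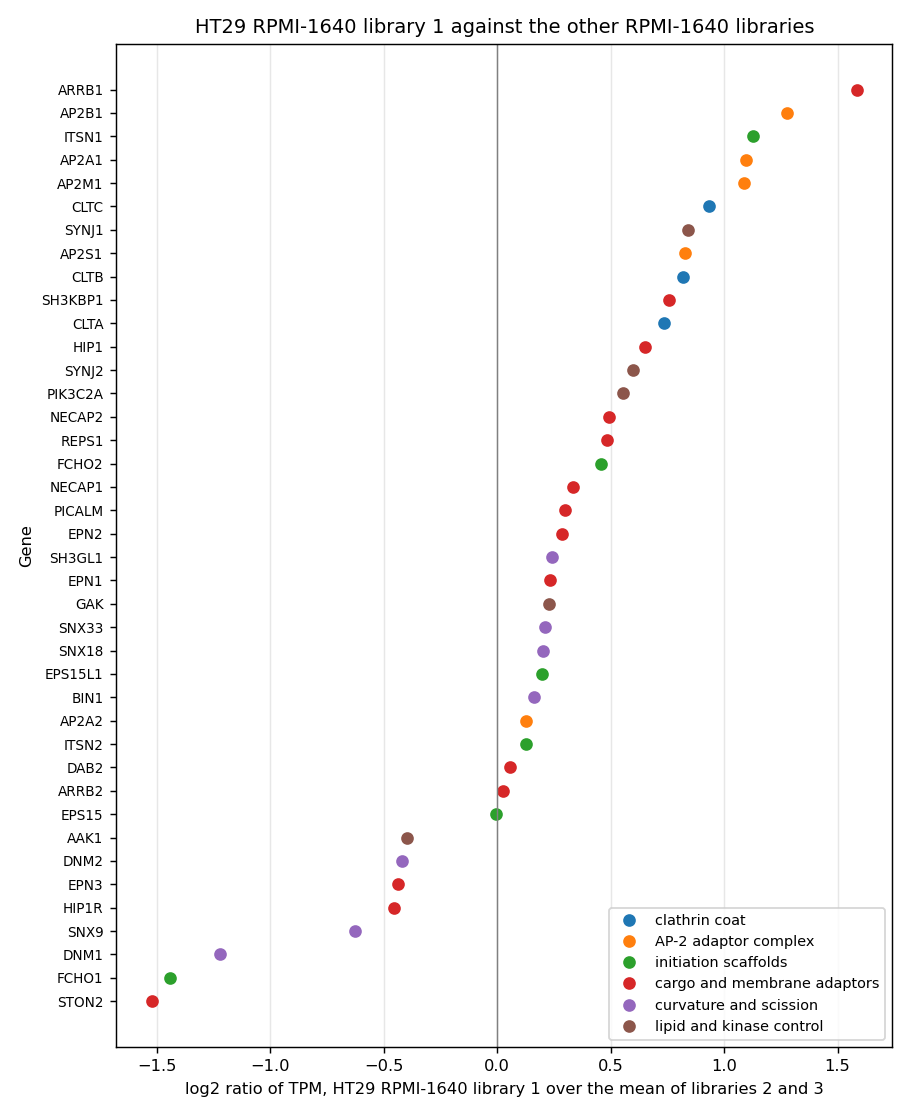
log2 ratio of the TPM in HT29 RPMI-1640 library 1 to the mean of RPMI-1640 libraries 2 and 3 (x axis) for each of the 40 genes (y axis, sorted), coloured by role. Coat and AP-2 genes lie to the right except AP2A2, whose ratio is close to 0, and STON2, FCHO1 and DNM1 lie farthest to the left.

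With all 6 HT29 libraries, 3 of 39 members fell, AP2A2, EPN3 and HIP1, and 0 rose, by limma with adjusted p under 0.05 (10 of the 39 had an unadjusted p under 0.05). Over all 16352 genes tested, 3.58% fell and 2.53% rose. The count of 3 fell to 0 without RPMI-1640 library 2 or 3, or without any 1 of the HPLM libraries, and went to 11 without RPMI-1640 library 1. Over all genes, 4 and 93 fell without RPMI-1640 library 2 and 3, and 0, 4 and 0 without HPLM library 1, 2 and 3. Those counts of 0 members are therefore no result about the members. By edgeR on recovered reads 1 member rose and 4 fell, against 5.17% and 5.65% of genes, and by DESeq2 1 rose and 9 fell, against 9.24% and 11.9%. Without RPMI-1640 library 1, 11 of 40 members fell and 1 rose, against 21.4% of 17273 genes lowered and 17.8% raised. The 11 include FCHO1, which passed the filter through the RPMI-1640 libraries only. The median over members was -0.14, against -0.00 over all genes tested. After trimmed mean scaling of these 5 libraries, 14 members fell and 5 rose, against 24.7% and 24.6% of genes, and the 11 and the 1 were among them.

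Of 7 curvature and scission genes, 4 fell in HT29 without library 1, against 21.4% of all genes. With it limma called 0 (4 had an unadjusted p under 0.05), against 3.58% of all genes lowered. By edgeR SH3GL1 was called lower with all libraries, against 5.65% of all genes. By DESeq2 BIN1, SH3GL1 and SNX9 were, against 11.9%. SNX9 stood at 37.6, 62.0 and 53.9 TPM in RPMI-1640 libraries 1 to 3 and at 27.1, 25.0 and 22.6 TPM in HPLM. Every HPLM library lay below every RPMI-1640 library, also below library 1. The log2 change was -0.98 ± 0.219 with all libraries, just short of a call (limma adjusted p = 0.053), and -1.19 ± 0.126 without library 1 (limma adjusted p = 0.0015). SNX9 was thus lowered in HT29 by limma without that library and by DESeq2 also with it, and raised in H441. DNM2 stood at 44.6, 63.6 and 55.8 TPM in RPMI-1640 and at 39.8, 37.7 and 32.4 TPM in HPLM, without overlap. Its change was -0.56 ± 0.187 with all libraries (limma adjusted p = 0.13) and -0.69 ± 0.132 without library 1 (limma adjusted p = 0.0099). DNM1 stood at 42.4, 40.4 and 40.7 TPM in HPLM, below RPMI-1640 libraries 2 and 3 and above library 1. Its change was -0.70 with all libraries, not called (limma adjusted p = 0.27), and -1.10 ± 0.099 without library 1 (limma adjusted p = 0.00099). This call therefore rests on leaving that library out. DNM1 overlaps CIZ1 on the opposite strand, has 15 pseudogenes named after it, and DNM2 overlaps TMED1. SH3GL1 stood at 34.6, 28.7 and 29.9 TPM in RPMI-1640 and at 21.5, 21.8 and 17.1 TPM in HPLM, without overlap (-0.61 with all libraries, not called as deposited but called after scaling at -0.52, limma adjusted p = 0.048, and -0.53 ± 0.137 without library 1, limma adjusted p = 0.027). SNX18, raised most in H441, stood at 10.4, 10.3 and 7.77 TPM and at 9.16, 9.84 and 8.24 TPM in HT29, with overlapping groups and changes of -0.05 and 0.01. SNX33 and BIN1 were not called by limma as deposited (0.20 and -0.37 without library 1), and BIN1 was called lower after scaling (-0.34).

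Among the cargo and membrane adaptors HIP1 had the largest fall with all HT29 libraries by limma, which gave the calls below. With all libraries DESeq2 called EPN2, EPN3, HIP1 and STON2 lower and DAB2 higher, against 11.9% and 9.24% of all genes. By edgeR EPN3 and HIP1 were called lower and DAB2 higher, against 5.65% and 5.17%. HIP1 (chr7:75533300-75738962), which joins clathrin coats to membrane lipids and actin, stood at 14.8, 10.5 and 8.32 TPM in RPMI-1640 and at 3.85, 3.79 and 3.52 TPM in HPLM. The fall, -1.34 ± 0.219 with all libraries (limma adjusted p = 0.026) and -1.13 ± 0.126 without library 1 (limma adjusted p = 0.0017), was larger than the spread in either group. HIP1R, its relative, stood at 18.9, 25.6 and 26.2 TPM and at 18.2, 16.7 and 16.8 TPM (-0.42, not called, and -0.56 ± 0.10 without library 1, limma adjusted p = 0.0079). EPN3 (chr17:50532543-50543750) stood at 9.99, 13.7 and 13.4 TPM in RPMI-1640 and at 6.75, 5.96 and 5.61 TPM in HPLM. Its changes were -0.90 ± 0.177 (limma adjusted p = 0.039) and -1.04 ± 0.112 without library 1 (limma adjusted p = 0.0016). As deposited it was the one member limma called lower in both lines. In the scaled fits of H441 and of HT29 without library 1, ARRB1, BIN1, DNM2, EPN2, EPN3, HIP1 and SH3GL1 were called lower in both. Of all genes, 22.5% and 24.7% were lowered in those fits. After scaling of all 6 libraries EPN3 missed the threshold at -0.82 (limma adjusted p = 0.056). EPN2 stood at 7.88, 6.67 and 6.28 TPM and at 5.19, 4.77 and 4.63 TPM (-0.43, not called, and -0.35 ± 0.103, limma adjusted p = 0.039). STON2, a stonin that sorts synaptotagmins, was lower in HPLM by -1.39 ± 0.113 without library 1 (limma adjusted p = 0.00072) and by -0.97 ± 0.36 with it, not called (limma adjusted p = 0.16). DAB2 rose: it stood at 7.62, 7.58 and 7.10 TPM in RPMI-1640 and at 13.1, 11.9 and 11.4 TPM in HPLM. Library 1 was level with the others for this gene, and the change was 0.64 ± 0.140 with it (limma adjusted p = 0.051) and 0.65 ± 0.108 without it (limma adjusted p = 0.0061). PICALM stood at 179, 149 and 143 TPM in RPMI-1640 and at 132, 131 and 111 TPM in HPLM, without overlap, yet was not called (-0.32 and -0.22). The other adaptors (EPN1, NECAP1, NECAP2, REPS1, ARRB1, ARRB2 and SH3KBP1) were not called either, with changes of -0.45 to 0.34 without library 1. After scaling of those 5 libraries ARRB1 was called lower (-0.42) and REPS1 higher (0.36).

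The coat and AP-2 genes of HT29 showed how much library 1 weighs. AP2A2 was the exception: it stood at 26.1, 25.8 and 22.0 TPM in RPMI-1640 and at 15.3, 15.0 and 13.3 TPM in HPLM. The fall was -0.72 ± 0.151 with all libraries (limma adjusted p = 0.045) and -0.68 ± 0.122 without library 1 (limma adjusted p = 0.0082). AP2M1 stood at 141, 70.1 and 62.3 TPM in RPMI-1640 and at 102, 96.9 and 77.1 TPM in HPLM. AP2B1 stood at 137, 130 and 105 TPM in HPLM, and CLTA at 160, 94.6 and 97.8 TPM in RPMI-1640 and at 125, 123 and 106 TPM in HPLM. For these 3 genes the HPLM libraries lay between library 1 and the other RPMI-1640 libraries. Without library 1 the changes were 0.46, 0.38 and 0.29, not called as deposited (limma adjusted p = 0.056, 0.11 and 0.097) and called after scaling (limma adjusted p = 0.012, 0.033 and 0.016). CLTC stood at 107, 108 and 88.0 TPM in HPLM, with overlap and no call (-0.49 and -0.18). CLTB stood at 56.4, 31.0 and 33.0 TPM in RPMI-1640 and at 38.3, 34.6 and 33.3 TPM in HPLM, and AP2A1 at 32.9, 16.6 and 14.2 TPM and at 19.0, 18.7 and 15.7 TPM, neither called (-0.13 and -0.16 with library 1, 0.14 and 0.20 without it). AP2S1 stood at 246, 129 and 149 TPM and at 134, 122 and 110 TPM, not called (-0.46 and -0.19).

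Of the initiation scaffolds and the lipid and kinase genes, limma called FCHO1 alone in HT29 as deposited, and without library 1 only. With all libraries DESeq2 called FCHO1 alone among them, lower (-1.48), against 11.9% of all genes, and edgeR called none. FCHO1 stood at 0.772, 2.41 and 1.79 TPM in RPMI-1640 and at 0.740, 0.604 and 0.419 TPM in HPLM, from as few as 18 reads. It did not pass the filter with all libraries and fell without library 1 (-0.96 ± 0.143, limma adjusted p = 0.0044). It passed that filter through the RPMI-1640 libraries only, so its fall follows in part from the filter. The other 5 scaffolds changed by -0.17 to 0.12 without library 1, and the 5 lipid and kinase genes by -0.37 to -0.01, none called by limma as deposited. After scaling AAK1 was called lower (-0.25, limma adjusted p = 0.026).

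**Figure D4:**
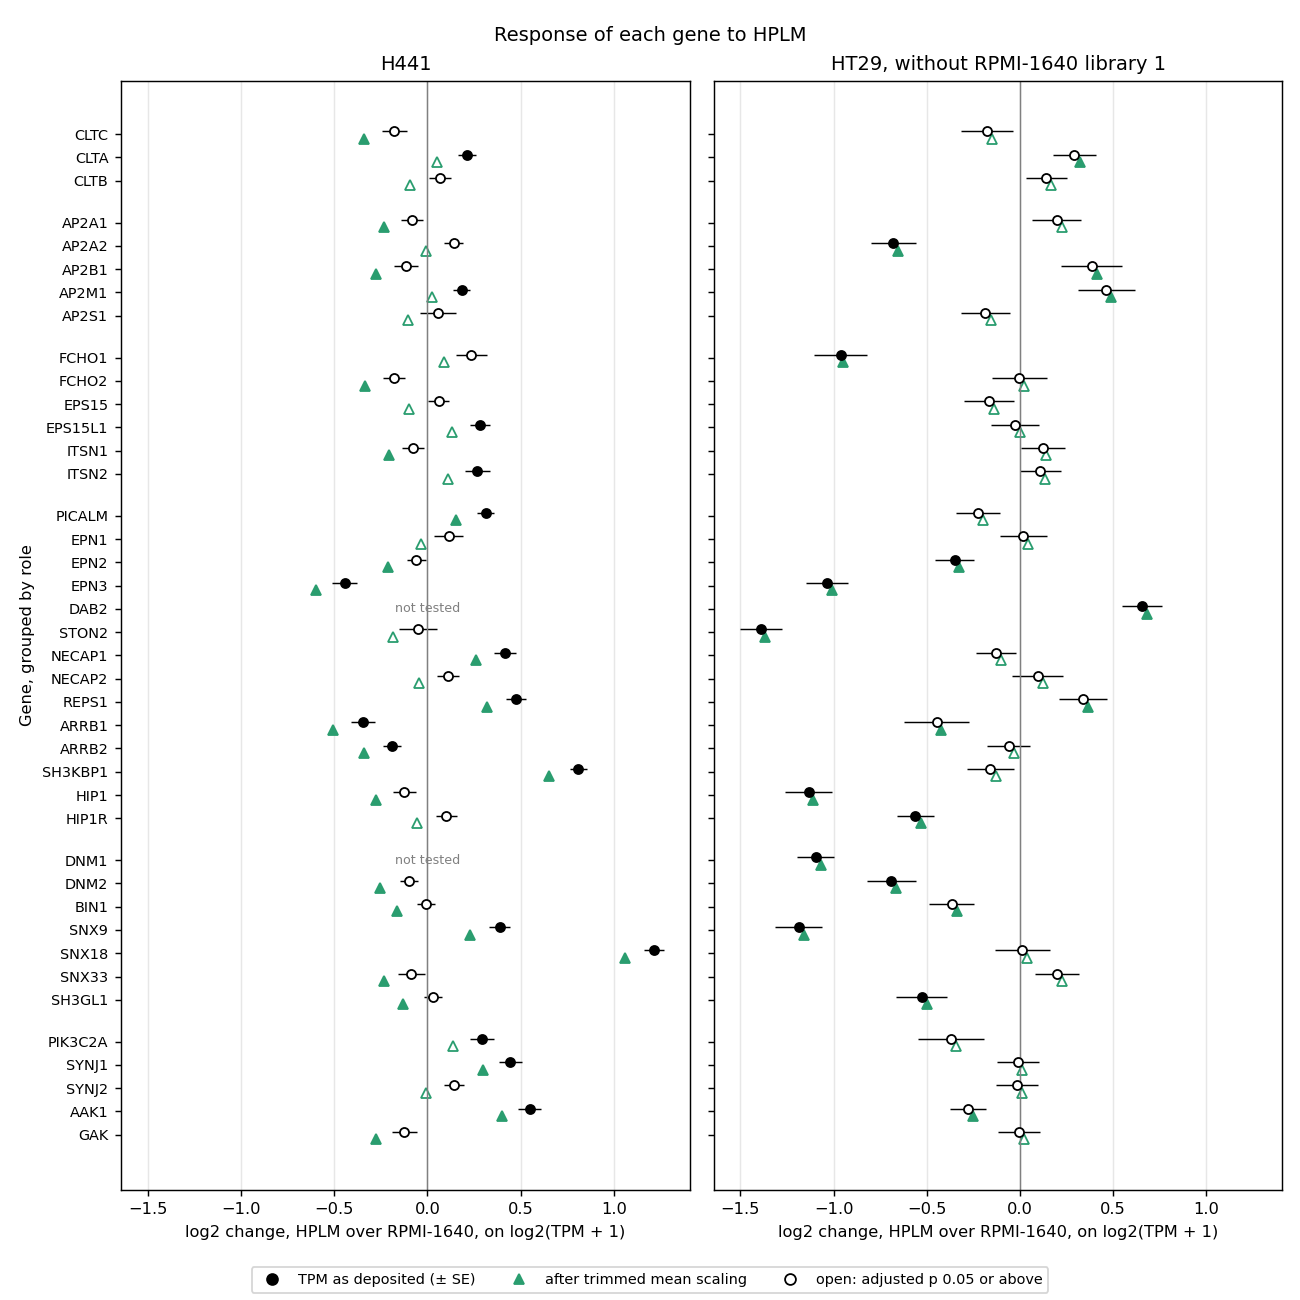
log2 change, HPLM over RPMI-1640, of each gene (rows, by role) in H441 and in HT29 without RPMI-1640 library 1, from limma on log2(TPM + 1) as deposited (circles, with SE) and after trimmed mean scaling (triangles); filled symbols have an adjusted p under 0.05. Triangles lie left of circles in H441 and almost on them in HT29, SNX18 is the highest point in H441 and STON2 the lowest in HT29.

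The response itself was compared between the lines, as HT29 minus H441. Of 37 members tested in both, 10 had a difference below 0 by limma with adjusted p under 0.05 and 0 above 0 (18 had an unadjusted p under 0.05). Of 14107 genes, 13.5% were called below 0 and 357 genes above 0. The 10 members were SNX18, SNX9, HIP1, SH3KBP1, AP2A2, PIK3C2A, AAK1, NECAP1, PICALM and SH3GL1. The largest was SNX9, at -1.37 ± 0.226 (limma adjusted p = 0.0035), followed by SNX18, at -1.27 ± 0.168 (limma adjusted p = 0.0011). The median difference over all genes was -0.24 as deposited and -0.01 after trimmed mean scaling, and over members -0.38 and -0.14. Differences as deposited therefore carry a shift below 0 that all genes share. After trimmed mean scaling 8 members remained below 0, against 8.47% of genes, and SNX33 lay above 0 (0.45), as did 857 genes. AAK1 (-0.50, limma adjusted p = 0.095) and PIK3C2A (-0.61, limma adjusted p = 0.052) lost their call. Without HT29 RPMI-1640 library 1 the 10 kept theirs, and 18 members in all lay below 0 against 29.9% of genes. The 18 include FCHO1 (-1.20), which passed the filter in HT29 through the RPMI-1640 libraries only, so its difference follows in part from the filter. AP2B1 lay above 0 (0.50 ± 0.169, limma adjusted p = 0.040), as did 1557 of 14382 genes. This model gives both lines a common spread for each gene, and the HT29 RPMI-1640 group varied more than the others.

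Shares within a family do not depend on scaling, since they compare genes of 1 library. Among the SNX9 proteins of H441, SNX18 supplied 35.3, 35.6 and 34.5% of the summed TPM in RPMI-1640 and 51.9, 50.7 and 49.8% in HPLM. SNX9 went from 50.9, 51.3 and 53.7% to 41.1, 41.4 and 42.9%. In HT29 SNX9 held 55.4, 68.4 and 69.4% in RPMI-1640 and 47.7, 45.1 and 46.0% in HPLM, while SNX33 rose from 29.3, 20.2 and 20.6% to 36.2, 37.1 and 37.3%. SNX9 thus lost share in every HPLM library of both lines, to SNX18 in H441 and mainly to SNX33 in HT29. Between the kinases, AAK1 went from 34.7, 34.1 and 32.6% to 47.9, 43.6 and 45.8% in H441. In HT29 it held 17.4, 24.4 and 24.5% in RPMI-1640 and 20.2, 19.8 and 21.6% in HPLM.

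Between the AP-2 alpha subunits, AP2A2 took a larger share in HPLM in H441 and, in HT29, a smaller one than in RPMI-1640 libraries 2 and 3 alone. It held 37.3, 37.2 and 38.6% in the H441 RPMI-1640 libraries and 41.7, 42.3 and 40.9% in HPLM. In HT29 it held 44.2, 60.9 and 60.8% in RPMI-1640 and 44.5, 44.6 and 45.9% in HPLM, so that library 1 was level with HPLM and not with its own group. EPN3 held 34.0, 32.9 and 32.4% of epsin TPM in the H441 RPMI-1640 libraries and 27.7, 24.9 and 26.2% in HPLM. Its share in HT29 was 25.4, 35.5 and 35.3% in RPMI-1640 and 20.8, 20.1 and 21.2% in HPLM, lower in HPLM in both lines. CLTA held 59.9 to 62.4% of light chain TPM in the H441 RPMI-1640 libraries and 63.3 to 63.7% in HPLM, and in HT29 74.0 to 75.3% and 76.1 to 78.1%. HIP1 went from 43.8, 29.1 and 24.1% to 17.5, 18.5 and 17.3% against HIP1R in HT29. Shares of 13 families were computed in each line. An exact permutation test of 3 libraries against 3 cannot go below 0.1, so no share could pass 0.05 and these are descriptions.

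**Figure D5:**
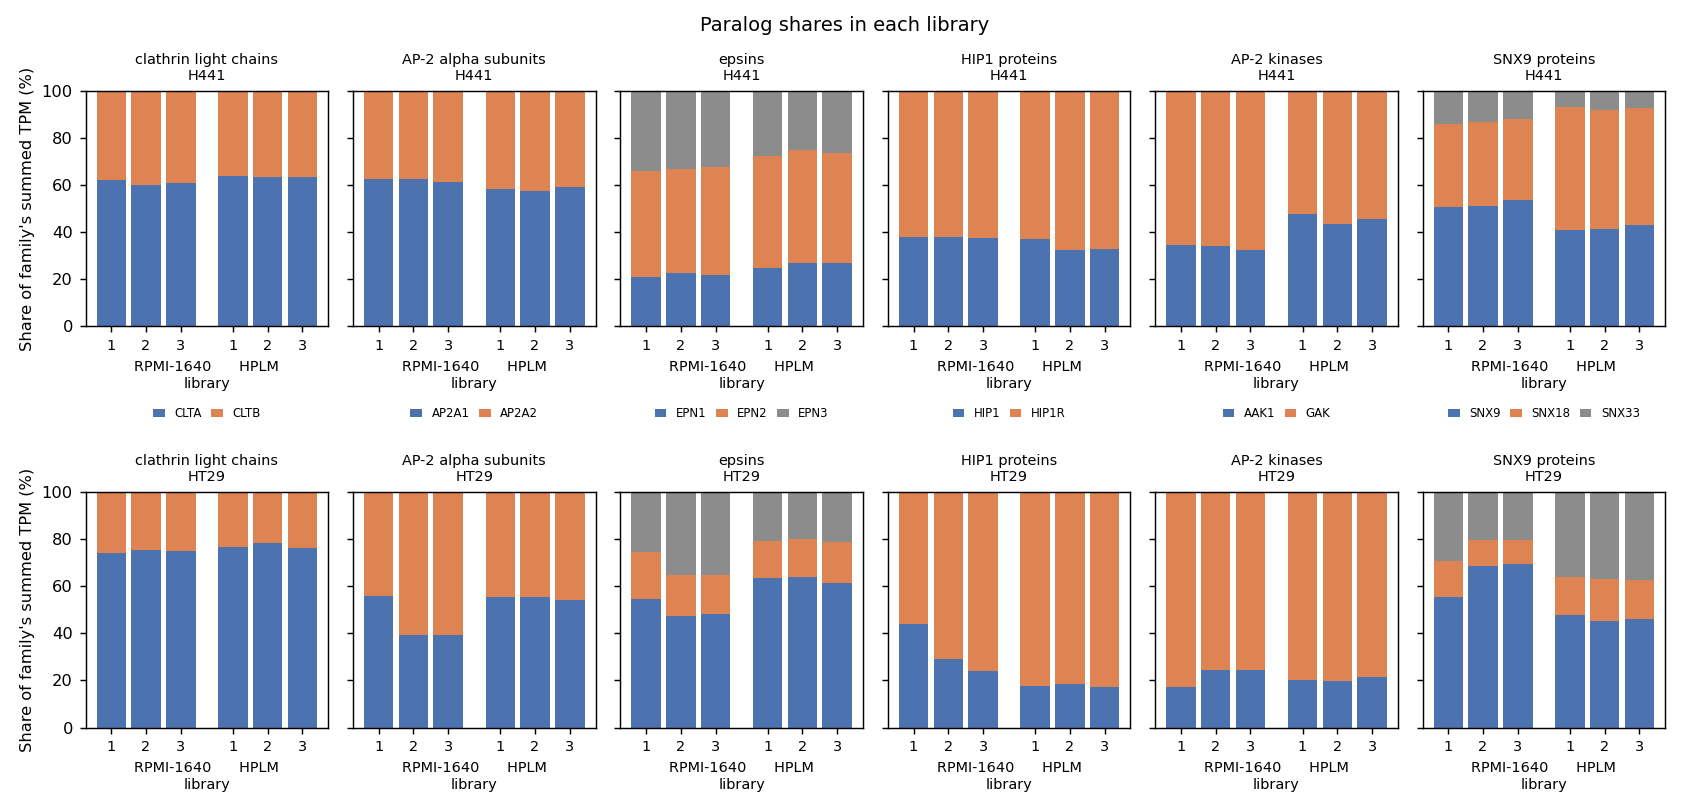
Share of each gene in its family's summed TPM (y axis, percent, stacked to 100) in every library of H441 (top) and HT29 (bottom) for 6 families; bars 1 to 3 at the left are RPMI-1640 and at the right HPLM. SNX18 widens in the H441 HPLM bars, and HT29 RPMI-1640 library 1 resembles the HPLM bars for the AP-2 alpha subunits.

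Accessory and uncoating genes outside the 40, and cargo receptors that use the route, were followed in the same fits. Of 33 accessory genes 26 were tested in H441, where 9 rose and 6 fell as deposited, against 33.7% and 11.3% of all genes. After scaling 7 rose and 7 fell, against 22.5% of all genes each. Without RPMI-1640 library 1, 24 were tested in HT29, where 2 rose and 7 fell, against 17.8% and 21.4% of all genes. With that library limma called PACSIN3 alone, lower, against 3.58% of all genes lowered. By edgeR 1 rose and 1 fell, against 5.17% and 5.65% of all genes. By DESeq2 2 rose and 5 fell, against 9.24% and 11.9%. HSPA8 stood at 457 ± 14.7 TPM (SD, n = 3) in RPMI-1640 and at 675, 648 and 648 TPM in HPLM in H441 (0.52 ± 0.049, limma adjusted p = 0.00093). In HT29 its HPLM libraries held 515, 536 and 414 TPM, above RPMI-1640 libraries 2 and 3 and far below library 1. Its change there was 1.42 ± 0.178 without library 1 (limma adjusted p = 0.0025) and 0.28 ± 0.918 with it, not called. PACSIN3, an F-BAR protein of the syndapin family, fell in HT29 with and without that library (-1.33, limma adjusted p = 0.035, and -1.59, limma adjusted p = 0.00055). PIP5K1A, a kinase that makes the lipid AP-2 binds, rose in H441 (0.44, limma adjusted p = 0.0017), and INPP5B, a phosphatase of that lipid, fell (-0.43, limma adjusted p = 0.00098).

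Of 8 cargo receptors 6 were tested in H441, where 3 rose and 1 fell as deposited (33.7% and 11.3% of all genes did) and 1 rose and 2 fell after scaling (22.5% each). EGFR, the epidermal growth factor receptor, rose in H441 (0.37, limma adjusted p = 0.0077, and 0.22 after scaling). In HT29 without library 1, 7 receptors were tested, of which 3 rose and 2 fell, against 17.8% and 21.4% of all genes. With it 0 rose and 1 fell by limma, against 2.53% and 3.58% of all genes. By edgeR and by DESeq2 1 rose and 1 fell, against 5.17% and 5.65%, and 9.24% and 11.9%. LRP1, a large lipoprotein receptor, fell by 1.26 in HT29 without library 1 (limma adjusted p = 0.0013), but its change was -0.72 and not called with library 1.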

How the data were processed

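Messenger RNA of 2 cell lines in 2 media was recorded as 4 samples, with 3 numbered table columns each, treated here as 12 libraries. The build GRCh38 and the tools STAR 2.5.2b, Subread 1.5.2, Trimmomatic 0.36 and DESeq2 are named in the submitters' processing notes. What each did, which DESeq2 version ran and which annotation was taken is not given in the sources used here. The authors deposited TPM values per line. They also deposited a comparison table per line with a normalised signal per library, log2 fold changes, p-values and adjusted p-values.

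Members were matched by the deposited symbols and joined to TPM by gene identifier, and the comparison tables hold 39 of the 40 for H441 and 40 for HT29. The members, the lists and the tests were chosen with earlier results of these data known. limma 3.58.1 in R 4.3.3 was fitted per line on log2(TPM + 1), for genes with at least 1 TPM in at least 3 libraries (2 where a library was left out). Tests were two-sided, with Benjamini-Hochberg adjustment over all genes tested and a threshold of 0.05. Fold changes on this scale understate the change of low genes. Differences between lines came from an interaction term over all 12 libraries. Alternatives were a pseudocount of 0.1, no filter, trimmed mean scaling, removal of 37 mitochondrially encoded genes, library number as a block, leaving out each library, and edgeR 4.0.16 and DESeq2 1.42.0 on recovered reads.

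Recovered reads are the deposited signal multiplied by a size factor found from its smallest steps. In all libraries 100% of values lay within 0.01 of a whole read, and the smallest was 1 read, except in H441 HPLM library 3 (2 reads). Scripts were tested on simulated data. Coordinates and exon overlaps came from GENCODE 29 (GRCh38). The kit keeps no strand, and 15 members have exons that overlap a gene on the opposite strand, so those reads cannot be told apart. Members past the threshold in a line, and CLTA, CLTB, CLTC, the AP-2 subunits, PICALM, DNM2 and SNX9, are given in full. Of each other list at most 3 genes per line are named, by smallest adjusted p among those averaging at least 1 TPM. The values of 1 cargo receptor are not reported here.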

Additional observations from a re-analysis of the deposited data

Results flagged for a closer look

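For 10 genes the response to HPLM differed between the lines by the interaction term of limma, HT29 minus H441 on the log2 scale. The values are as deposited, where the median over all genes was -0.24. After trimmed mean scaling AAK1 and PIK3C2A were not called. SNX9 differed by -1.37 (1.32-fold higher in HPLM in H441, 2.06-fold higher in RPMI-1640 in HT29), SNX18 by -1.27, SH3KBP1 by -1.22 and HIP1 by -1.21. AP2A2 differed by -0.864 and PIK3C2A by -0.851. AAK1 differed by -0.717, NECAP1 by -0.651, PICALM by -0.637 and SH3GL1 by -0.637. Adjusted p-values of limma ran from 0.0011 for SNX18 to 0.044 for PIK3C2A. In SNX18, SH3KBP1, NECAP1, PICALM, AAK1 and PIK3C2A the H441 response was called and the HT29 response was not. In AP2A2 and HIP1 the reverse held, and in SNX9 and SH3GL1 the HT29 response as deposited was called by limma without RPMI-1640 library 1 and not with it. All 10 differences stayed below 0 and called without that library, at -1.58 for SNX9 and -1.20 for SNX18.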

How the results depend on the processing

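In H441 the 13 members raised became 8 after trimmed mean scaling and 8 without mitochondrially encoded genes, and the 3 lowered became 15 and 14, and 15 by edgeR and 15 by DESeq2. Over all genes 5546 rose and 1858 fell as deposited, against 3701 and 3704 after trimmed mean scaling, 4002 and 3383 without mitochondrially encoded genes, 4378 and 4193 by edgeR and 3662 and 3775 by DESeq2. Leaving out a library gave 9 to 13 raised and 2 to 3 lowered. In HT29 the 0 raised became 1 with no filter, trimmed mean scaling, no mitochondrially encoded genes, edgeR or DESeq2. The 3 lowered became 9 by DESeq2, and leaving out a library gave 0 to 1 raised and 0 to 11 lowered. Over all genes, leaving out a library of HT29 gave 0 to 3074 raised and 0 to 3693 lowered. Without RPMI-1640 library 1 the 1 raised became 5 after trimmed mean scaling, 6 without mitochondrially encoded genes and 7 by edgeR, while the 11 lowered stayed within 10 to 16. Between lines, 0 members above 0 became 1 after scaling and 1 without that library, and 10 below 0 became 8 and 18, the 18 including FCHO1.

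Of 38 members in H441, 9 changed sign after trimmed mean scaling, none of them called as deposited, and SH3GL1 alone was called after it (-0.13). In HT29 7 of 39 changed sign without RPMI-1640 library 1, none called as deposited; AP2B1, at -0.04 with that library, was called at 0.41 without it after scaling. In H441 CLTB was -0.0939 after trimmed mean scaling, -0.0697 without mitochondrially encoded genes, -0.0835 by edgeR and -0.0936 by DESeq2. AP2S1 was -0.102, -0.078, -0.0892 and -0.102, and -0.0405 to 0.131 when a library was left out. AP2A2 was -0.00685 after trimmed mean scaling and -0.00279 by DESeq2. In HT29 the ITSN1 share went from -2.46 to 0.532 percentage points, and the SYNJ1 share from -1.04 to 0.0745, without RPMI-1640 library 1. The cause was not tested.

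No clear pairing by library number was seen, though deviations from a mean of so few libraries cannot exclude one. Same-numbered libraries had correlations of deviations of -0.030, 0.015 and -0.0034 in H441 and 0.054, -0.097 and 0.17 in HT29. The 0.17 was the highest value of HT29. With the replicate block 9 members rose and 2 fell in H441, 0 rose and 0 fell in HT29, and 1 rose and 10 fell in HT29 libraries 2 and 3. Over all genes, 4199 rose and 1284 fell of 16458 in H441, and 0 rose and 0 fell of 16352 in HT29. In HT29 libraries 2 and 3, 2431 rose and 3593 fell of 16805. Depth limits FCHO1 in HT29 and DNM1 and DAB2 in H441.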

Other observations

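Adaptors that work with clathrin away from the plasma membrane were called in both directions. Of 19 trans-Golgi and endosomal adaptor genes, 5 rose and 5 fell in H441 as deposited, against 33.7% and 11.3% of all genes, and 2 rose and 9 fell after trimmed mean scaling, against 22.5% each. In HT29 without RPMI-1640 library 1, 1 rose and 4 fell, against 17.8% and 21.4% of all genes. With all libraries 0 of the 19 were called by limma (4 had an unadjusted p under 0.05), against 2.53% of all genes raised and 3.58% lowered. By edgeR 0 rose and 1 fell (AP1S1), against 5.17% and 5.65%. By DESeq2 2 rose and 3 fell (AP1S1, AP3S1 and CLINT1), against 9.24% and 11.9%. AP1S1, a sigma subunit of AP-1, stood at 268, 261 and 235 TPM in RPMI-1640 and at 179, 160 and 171 TPM in HPLM in H441 (-0.58 ± 0.074, limma adjusted p = 0.0023). In HT29 it stood at 284, 186 and 190 TPM and at 138, 142 and 117 TPM, called without library 1 (-0.51 ± 0.121, limma adjusted p = 0.021) but not with it (-0.70, limma adjusted p = 0.11). AFTPH, a partner of AP-1, stood at 40.4, 40.8 and 41.7 TPM in RPMI-1640 and at 56.2, 58.5 and 60.1 TPM in HPLM in H441 (0.50 ± 0.048, limma adjusted p = 0.0010). AP3S1, a sigma subunit of AP-3, rose in H441 (0.34 ± 0.051, limma adjusted p = 0.0041) and fell in HT29 without library 1 (-0.48 ± 0.103, limma adjusted p = 0.015), but was not called with it (-0.47, limma adjusted p = 0.097). CLINT1, an epsin-like protein of the trans-Golgi, fell in HT29 without library 1 (-0.66 ± 0.139, limma adjusted p = 0.014), and was not called with it (-0.60, limma adjusted p = 0.084).

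Of 10 genes of early endosomes and recycling, 5 rose and 0 fell in H441 as deposited, while 3 rose and 5 fell after scaling, beside the same shares of all genes. In HT29 9 were tested, of which 0 rose and 3 fell without RPMI-1640 library 1, against 17.8% and 21.4% of all genes. With it limma called 0 (1 had an unadjusted p under 0.05), against 2.53% of all genes raised and 3.58% lowered. By edgeR and by DESeq2 1 each was called, lower, against 5.65% and 11.9% of all genes. EEA1, an early endosome tether, stood at 13.4, 14.1 and 13.5 TPM in RPMI-1640 and at 19.5, 18.1 and 18.6 TPM in HPLM in H441 (0.43 ± 0.051, limma adjusted p = 0.0019). SNX27, a sorting nexin that returns receptors to the surface, rose in H441 (0.41 ± 0.066, limma adjusted p = 0.0049) and fell in HT29 without library 1 (-0.38 ± 0.106, limma adjusted p = 0.034), but was not called with it (-0.31, limma adjusted p = 0.26). RAB5A, the small GTPase of early endosomes, stood at 45.2, 80.3 and 82.5 TPM in RPMI-1640 and at 51.6, 52.5 and 47.3 TPM in HPLM in HT29, where library 1 was below the HPLM libraries. Without it RAB5A fell by 0.68 (limma adjusted p = 0.0046), and with it the change was -0.40 and not called.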
